A study of Mus musculus with 2 samples.

Results

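Open promoters poor in CpG were examined in inflammation-experienced regulatory T (Treg) cells, the Foxp3-dependent CD4 T cells that restrain immune responses. The set held 374 accessible regions at the 5′ ends of 356 protein-coding genes, out of 29415 regions in all. Of those 29415, 9294 lay at the 5′ end of a protein-coding gene and 8920 of these served as the comparison. Accessibility was measured by ATAC-seq, in which the transposase Tn5 inserts adapters into open DNA. The cells came from 1 adult male mouse, 6 months old, that carried Foxp3CreERT2 (an inducible Cre recombinase driven by Foxp3) and Rosa26YFP (a reporter that Cre switches on). The 2 samples, technical replicates from the same mouse, made up 1 group. The labels trace the primary cells to a hematopoietic cell of the bone marrow, and do not say which inflammation the mouse met, how the cells were sorted or whether Cre was induced. Every value below comes from lists that pool both samples, so no spread between libraries or mice can be given and no p-value was computed.

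The members were chosen as follows. Touching or overlapping peaks that passed the authors' threshold on the irreproducible discovery rate (IDR) were joined into regions, and the peak with the greatest fold enrichment gave the lead summit. A region was kept if that summit lay within 1000 bp of the 5′ end of a protein-coding gene record whose CpG content was in the lowest 3 deciles of all 21938 such genes. CpG content is the observed over expected number of CG pairs in the 500 bp before and the 500 bp after that end, and the highest ratio kept was 0.264. Fold enrichment is the authors' linear ratio over a background that is not stated. Positions are GRCm38 (mm10), counted from 1, and distances along the gene are negative upstream of its 5′ end.

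Most mammalian promoters lie in CpG islands, stretches that keep their CG pairs and stay open in many tissues. Promoters without an island have lost most CG pairs to methylation and deamination, and they often belong to genes of restricted use, such as receptors, secreted proteins and immune genes. They tend to open where sequence-specific activators act on them. In T cells these include ETS and RUNX factors, which bind cores such as GGAA and TGTGGT, and in cells that sensed interferon they include IRF factors and the STAT-IRF complex ISGF3.

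The promoter sequences of 6 member genes are shown because each carries a motif that the comparisons below turn on and lies wholly inside its open region. They are reference sequence from RefSeq GRCm38.p6, 250 bases before to 50 after the 5′ end and read along the gene. Only matches of the motif named for each gene are in capitals, on either strand, and positions count the 5′ end as 0. Matches of other compared motifs are left in small letters. Among them are IRF sites in Zbp1, Trim30a and Rsad2, a RUNX site in Was and an ETS core in Il2rg. Was, the actin regulator WASp of blood cells, has the ETS core CAGGAAG (written here from the other strand) starting at −16, at chrX:8090449-8090748 on the minus strand. Zbp1, a sensor of left-handed nucleic acid, has the RUNX site TGTGGTT from the other strand at −64, at chr2:173218874-173219173 on the minus strand. Ifit1, which binds viral RNA, has 3 IRF matches (GAAANNGAA, from the other strand) at −91, −85 and −66, of which the first and second overlap, at chr19:34640621-34640920 on the plus strand. Trim30a, a tripartite-motif protein that interferon induces, has the AP-1 site TGANTCA at 43, at chr7:104465144-104465443 on the minus strand. Il2rg, the common gamma chain of cytokine receptors, has the KLF box CCCACCC from the other strand at −219 and 11, at chrX:101268206-101268505 on the minus strand. Rsad2, the antiviral enzyme viperin, has the TATA box TATAAA from the other strand at −10, at chr12:26456403-26456702 on the minus strand.
Was: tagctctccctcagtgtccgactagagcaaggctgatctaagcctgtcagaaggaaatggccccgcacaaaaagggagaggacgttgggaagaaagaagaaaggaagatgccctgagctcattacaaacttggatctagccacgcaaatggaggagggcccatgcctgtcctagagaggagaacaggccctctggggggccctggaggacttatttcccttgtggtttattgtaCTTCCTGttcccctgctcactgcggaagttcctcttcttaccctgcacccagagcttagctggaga
Zbp1: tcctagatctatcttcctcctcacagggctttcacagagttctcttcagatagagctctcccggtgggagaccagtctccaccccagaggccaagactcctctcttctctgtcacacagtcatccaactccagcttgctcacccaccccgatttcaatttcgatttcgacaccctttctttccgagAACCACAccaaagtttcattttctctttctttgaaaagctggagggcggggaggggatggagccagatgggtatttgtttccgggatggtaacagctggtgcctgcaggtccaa
Ifit1: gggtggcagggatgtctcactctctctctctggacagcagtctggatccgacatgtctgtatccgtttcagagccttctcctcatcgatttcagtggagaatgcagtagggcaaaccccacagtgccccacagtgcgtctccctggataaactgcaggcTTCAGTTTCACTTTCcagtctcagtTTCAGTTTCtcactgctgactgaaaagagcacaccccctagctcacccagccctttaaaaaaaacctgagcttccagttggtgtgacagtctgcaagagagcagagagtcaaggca
Trim30a: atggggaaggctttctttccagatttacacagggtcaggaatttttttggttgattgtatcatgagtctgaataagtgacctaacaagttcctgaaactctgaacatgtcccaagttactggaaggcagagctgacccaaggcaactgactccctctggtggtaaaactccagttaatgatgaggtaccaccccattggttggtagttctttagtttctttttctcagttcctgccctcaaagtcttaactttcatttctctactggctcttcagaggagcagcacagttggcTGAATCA
Il2rg: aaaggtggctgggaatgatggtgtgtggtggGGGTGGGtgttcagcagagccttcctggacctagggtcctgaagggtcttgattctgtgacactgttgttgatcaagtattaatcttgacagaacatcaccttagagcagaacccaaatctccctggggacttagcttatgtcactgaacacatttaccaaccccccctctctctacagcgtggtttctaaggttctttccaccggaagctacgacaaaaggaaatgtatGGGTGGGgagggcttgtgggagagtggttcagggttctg
Rsad2: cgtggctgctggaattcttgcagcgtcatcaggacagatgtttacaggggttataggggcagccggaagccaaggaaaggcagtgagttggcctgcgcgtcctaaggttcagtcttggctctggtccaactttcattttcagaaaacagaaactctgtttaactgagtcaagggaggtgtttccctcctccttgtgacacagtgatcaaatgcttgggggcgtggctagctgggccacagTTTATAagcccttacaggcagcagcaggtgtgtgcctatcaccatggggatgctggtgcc

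CpG-poor 5′ ends were seldom open. Of 6581 CpG-poor genes, 356 had an open 5′ end (5.41%, 95% exact binomial interval 4.88 to 5.98%), against 4234 of 8775 genes in the middle 4 deciles (48.3%) and 5417 of 6582 in the upper 3 (82.3%). Over all 21938 genes the share was 45.6%. Intervals of shares cover counting error only, since genes are not replicates. The share climbed within the CpG-poor genes as well, from 2.78% in decile 1 through 5.33% in decile 2 to 8.11% in decile 3, and reached 85.3% in decile 10. Chemosensory receptor genes (olfactory, vomeronasal, taste, trace amine and formyl peptide receptors) made up 5 of the 356 open CpG-poor genes (1.40%) and 1485 of all 6581 (22.6%). Without them the open share was 6.89% (6.21 to 7.62%).

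**Figure D1:**
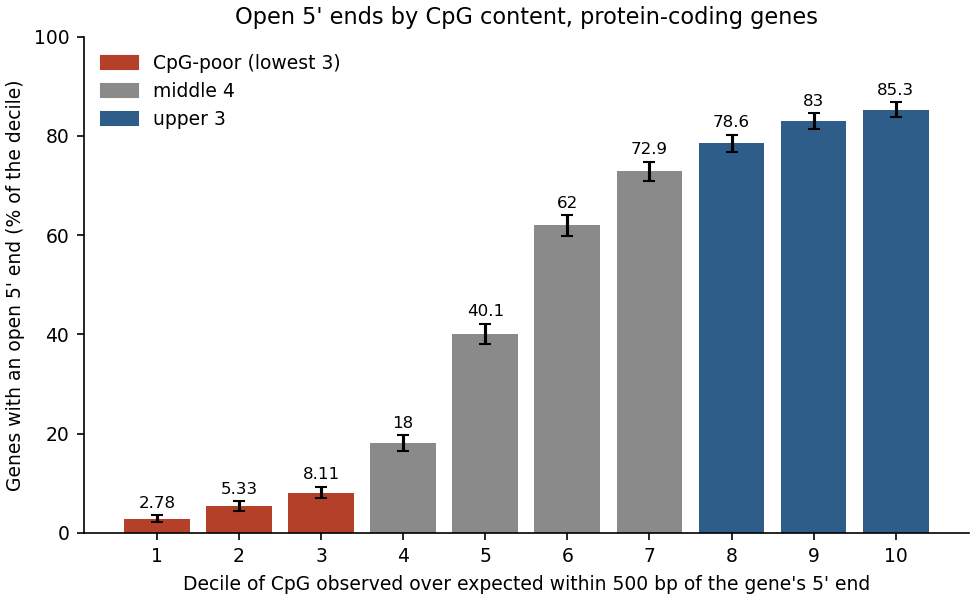
Share of protein-coding genes with an open 5′ end (%), by decile of the CpG observed over expected ratio, with 95% exact binomial intervals as error bars. The 3 CpG-poor deciles lie at 2.78 to 8.11%, and the share reaches 85.3% in decile 10.

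The open CpG-poor promoters carried lower fold enrichment than other open promoters, close to that of regions away from 5′ ends. Their median fold enrichment was 12.7 (quartiles 9.0 and 17.3, range 1.86 to 37.9), against 16.7 in open promoters of the middle 4 deciles, 15.6 in those of the upper 3, and 12 in the 20121 regions not at a 5′ end. The 95% interval of the members' median, 11.7 to 13.5, lay below those of the middle class (16.4 to 17.0) and the upper class (15.4 to 15.8). It reached from below to above the 11.9 to 12.1 of regions away from 5′ ends. The difference from other open promoters turned round when each summit was counted singly, with a median of −3.34 for lead summits of joined regions and 1.19 for single summits. More than 1 summit was called in 54.8% of the members, 78.7% of the middle class and 85.7% of the upper class.

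The members were also narrower. Their median width was 649 bp (quartiles 454 and 884 bp), against 858 bp and 1006 bp in the middle and upper classes and 561 bp away from 5′ ends. The IDR score reached its cap of 1000 in 67.1% of the members, 81.7% of the middle class, 88.3% of the upper class and 51.7% of other regions. In the ranked list, which gives a −log10 p for each of 2 sets of reads, both values were within 2-fold of each other at the lead summits of 370 of the 374 members (98.9%). The share was 99.0% in the middle class, 99.3% in the upper class and 98.5% away from 5′ ends. The IDR threshold already selects for agreement between sets of reads, so these shares are no separate check of the members. Whether these sets were the technical replicates is not stated. Of the 374 regions, 373 had the same start and end in the larger pseudoreplicated list, where 521 CpG-poor genes (7.92%) were open. The 165 genes open there alone had a median fold enrichment of 5.65.

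**Figure D2:**
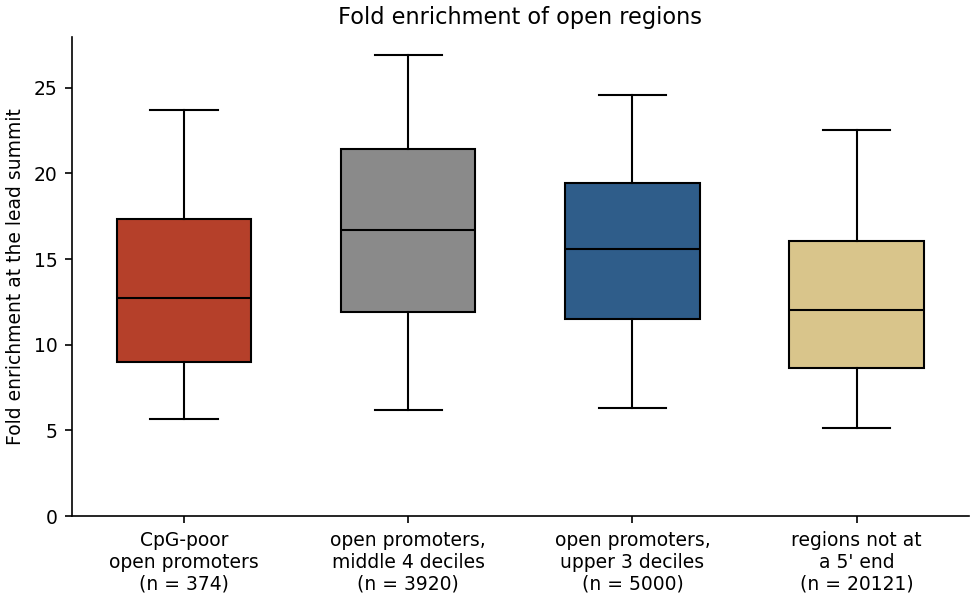
Fold enrichment at the lead summit, a linear ratio, for CpG-poor open promoters, other open promoters by CpG class and regions not at a 5′ end. Lines mark medians (12.7, 16.7, 15.6 and 12), boxes the quartiles and whiskers the 5th and 95th percentiles of regions in the pooled list.

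Summits sat just upstream of the 5′ end in many members, with a broad remainder. The median absolute distance, on either side, was 113 bp (quartiles 43 and 615 bp), against 62 bp in the middle class and 69 bp in the upper class. The signed medians were −22.5, −16 and −33 bp. In the members 148 summits (39.6%) fell in the 100 bp before the 5′ end and 34 (9.09%) in the 100 bp from it on. Within 200 bp lay 57.2% of the members' summits (52.0 to 62.3%), 74.0% of those of the middle class and 77.5% of those of the upper class. Within 500 bp the shares were 68.7%, 88.5% and 91.4%. Upstream summits made up 59.9% of the members (54.7 to 64.9%), against 58.2% and 67.5%, and the members' share dropped below 50% at a limit of 2000 bp (49.2%) and with summits counted singly (48.1%).

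**Figure D3:**
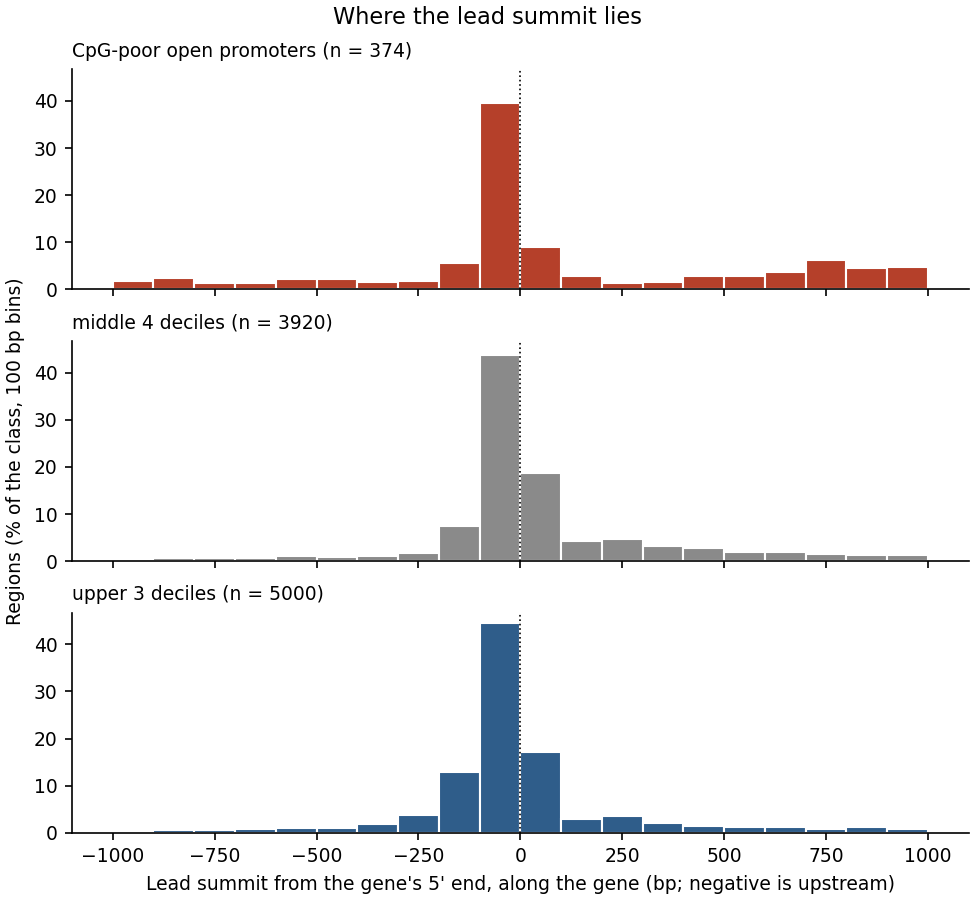
Position of the lead summit along the gene (bp from the 5′ end, bins of 100 bp) as a share of the regions of each class. All 3 classes peak in the bin just upstream (39.6% of the CpG-poor open promoters), and the CpG-poor class keeps more of its summits beyond 500 bp on both sides.

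The 160 members with summits more than 200 bp away held many openings whose own surroundings were not poor in CpG. The CpG ratio within 500 bp of the summit was above the members' limit in 78 of these 160 (48.8%, 40.8 to 56.8%). Among the 214 nearer members it was above in 5 (2.34%, 0.763 to 5.37%). Windows around near summits largely repeat the window that the rule chose for low CpG. The low share of the near members is therefore built in and is no separate result. In all, 83 of 374 members (22.2%) were open at sequence richer in CpG than the 5′ end that placed them in the set. Median fold enrichment was 11.2 in the 160 distant and 13.4 in the 214 near members. Of the 374 regions, 18 also lay at a CpG-richer 5′ end, 15 at the 5′ end of a long noncoding RNA gene, and 23 at a transcript start of another protein-coding gene whose record begins elsewhere. The 5 such regions of highest fold with a CpG-richer neighbour were those of Pinlyp (29.0, summit at −891 bp, CpG ratio around the summit 0.736), Orc4 (20.2, 891 bp, 0.559), Galnt11 (18.9, 960 bp, 0.923), Gm49392 (18.8, −688 bp, 0.154) and Irgm2 (18.7, −44 bp, 0.274). In these regions an opening cannot be told apart between the genes that share it.

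The values just inside and just outside the limits of the rule are given for 2 genes on each side. The members with the highest CpG ratio were F2rl2 (0.262, fold enrichment 19) and Gm19684 (0.263, 24.3), and the open genes just outside were Fyb (0.264, 5.87) and Helz2 (0.265, 18.5). The most distant members were Yipf6 (991 bp, fold enrichment 12.2) and Prodh (992 bp, 19.3), and regions at −1006 bp from Tnfrsf26 (12.1) and −1018 bp from Mmp10 (17.9) fell outside.

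The 12 regions of highest fold enrichment lay at genes of varied roles, 4 of them at tripartite-motif or Ifit genes. Trim12c reached 29.6, Trim21, a cytosolic antibody receptor and ubiquitin ligase, 29.0, and Trim30d 25.8, with summits at −73, −21 and −55 bp. The region shared by Ifit1 and Ifit1bl2 (chr19:34640513-34641135) reached 26.5. H2-Aa, the alpha chain of an MHC class II molecule, had 25.8 at −96 bp, and Btn2a2, a butyrophilin that modulates T cells, had 25.3 at −31 bp. Tpp1, a lysosomal peptidase, had 31.2 at −12 bp, and Akr1c13, an aldo-keto reductase, had 25.4 at 15 bp.

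Several of the 12 highest regions have their summit far from the 5′ end. Pinlyp had 29.0 at −891 bp, Sra1, which encodes the steroid receptor RNA activator, 26.6 at 491 bp, and Rbm17, a splicing factor, 25.3 at 885 bp. The highest region of all, 37.9 at the predicted gene Gm20594, had 276 of its 342 bp aligned to the mitochondrial genome at 90% identity or more, so its fold cannot be told apart from mitochondrial reads. It was the only member with 50 bp or more so aligned. The 3 members of least fold enrichment were a region of Lsp1, a leukocyte actin-binding protein (1.86, −log10 p 2.87, 381 bp downstream of the 5′ end), the tetraspanin gene Cd53 (3.72, at 6 bp) and Astl, an ovastacin protease (3.88, at 428 bp). Lsp1 had another member region at −3 bp, with a fold enrichment of 5.99.

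Genes of the antigen receptor pathway were open at most of their CpG-poor 5′ ends. Of 16 CpG-poor genes in the list of T cell receptor, co-receptor and proximal signalling genes, 13 were open (81.3%, 54.4 to 96.0%), against 5.41% of all CpG-poor genes and 16 of 22 CpG-richer genes of the same list. Fold enrichment was 21.6 at Txk, a Tec-family kinase, 21 at Tespa1, which supports thymocyte signalling, 17.0 at Gpr171, a G-protein-coupled receptor of T cells, and 15.4 at Cd3g, a chain of the receptor complex. It was 14.6 at Sla2, an adaptor that dampens signalling, 12.7 at Themis, 11.1 at Sh2d2a and 10.9 at the phosphatase gene Ptpn22. Lck, the kinase that starts the signal, had 7.35 and Ptprc, which encodes CD45, had 7.57. No region met the rule at Cd28, Cd3d or Sla, and Cd3d had one of 3.73 in the pseudoreplicated list.

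Cytoskeletal genes of leukocytes were open at 14 of 15 CpG-poor 5′ ends (93.3%, 68.1 to 99.8%), and at 16 of 23 CpG-richer ones. The highest values were 23.8 at Was, 18.7 at Arhgap15, a Rac GTPase-activating protein, 17.2 at Traf3ip3 and 15.4 at Arhgap45. Myo1g and Hcls1, an unconventional myosin and a cortactin relative, followed at 15.2 and 15.1, Tbc1d10c at 14.2 and Parvg at 14.1. Rac2, the Rac GTPase of blood cells, had 6.31. Cytip was the gene without a region.

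Surface proteins were open in part. Among lymphocyte glycoproteins and adhesion molecules 16 of 27 CpG-poor genes were open (59.3%, 38.8 to 77.6%), and 13 of 16 CpG-richer ones. The highest were Cd226, an activating receptor (16.3), Ly9 (15.7), the beta-2 integrin chain Itgb2 (15.6), Slamf1 (12.5) and Itgb7 (11.5), a chain of the gut-homing integrin, followed by Cd5 (11), Cd84 (10.9) and Selplg (10.5), the selectin ligand PSGL-1. Cd244a, Slamf7, Slamf6, Crtam, Itgae, Cd7 and Ly6a were among the 11 without a region. Of inhibitory and co-stimulatory receptors and ligands 8 of 16 were open, with 19.97 at Fasl, the death receptor ligand, 18.8 at Tnfsf10 (TRAIL), 14.5 at Tnfrsf14, 13.3 at Tnfrsf4 (OX40), 10.6 at Tigit, 9.03 at Btla, 8.79 at Pdcd1 (PD-1) and 5.29 at Tnfrsf26. The other 8, without a region, were Cd160, Tnfrsf18 (GITR), Pilra, Lag3, Lair1, Havcr2 (TIM-3), Havcr1 and Pdcd1lg2.

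All 3 chains of the interleukin-2 receptor have CpG-poor 5′ ends, and all were open. Il2rg had a fold enrichment of 17.6, Il2rb 12.7 and Il2ra, the high-affinity chain that Treg cells carry in abundance, 11. The cytokine receptor list as a whole had 7 of 17 CpG-poor 5′ ends open (41.2%, 18.4 to 67.1%), with Il18rap at 14.3, Il12rb1 at 8.27, Il21r at 6.90 and Il7r at 5.56. Il1r2, Il1rl1 (the interleukin-33 receptor), Il23r, Il5ra, Il17re, Il9r, Il31ra and Lifr were among the 10 without a region. Its CpG-richer genes were open at 18 of 25.

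Chemokine receptors and other G-protein-coupled receptors were open at 6 of 22 CpG-poor 5′ ends (27.3%, 10.7 to 50.2%), and secreted molecules at 5 of 28 (17.9%, 6.06 to 36.9%). Cxcr6, a receptor of tissue-homing T cells, had 18.1, Ccr7, which guides cells into lymph nodes, 15.1, P2ry10 11, Ptger2 10.3, Ccr8 9.48 and S1pr4 6.67. Without a region were Cxcr2, P2ry14, Ptgir, Cxcr5, Cx3cr1, Ccr1, Ccr3 and Ccr2, among 16. The open secreted molecules were Prf1 (perforin) and Gzma (granzyme A) at 13.4 each, Il2 at 10.5, Il21 at 8.92 and Ebi3, a chain of interleukin-35, at 7.98. Il17f, Ccl20, Il24, Il10, Xcl1, Il12a, Nkg7 and Ccl22 were among the 23 without one. By family name, 0 of 23 CpG-poor chemokine genes and 3 of 19 interleukin genes were open, with intervals (0 to 14.8% and 3.38 to 39.6%) that include the 5.41% of all CpG-poor genes, the third interleukin being Il18 with 23.6 in a region it shares with Bco2.

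Few transcription factor genes belong to the CpG-poor class. Of 49 listed for T and Treg cells, 5 were CpG-poor (among them Stat4, Spib, Ets1 and Stat5a) and none of their annotated 5′ ends was open, whereas 30 of the 44 CpG-richer ones were. An interval for 0 of 5 reaches 52.2%, so this count does not set them apart from the 5.41% of all CpG-poor genes.

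Interferon-inducible genes gave the highest count of open CpG-poor genes among the lists. Of 34 CpG-poor genes in the list 28 were open (82.4%, 65.5 to 93.2%), and 22 of 27 CpG-richer ones. Gbp4, Gbp8 and Gbp9 among them share a region (12.2), so the open genes are not all separate openings. The highest were Ifit1 (26.5), Trim30a (25.2), Rsad2 (23.0), Phf11b (21.5), Ifi27l2a (20.5), Zbp1 (19.8), Irgm2 (18.7), an immunity-related GTPase, and Slfn3 (17.1). Mx1, a dynamin-like antiviral GTPase, had 14.9 and the ubiquitin-like modifier gene Isg15 had 6.27. Oas2, Oas3, Oas1a, Tgtp2, Phf11d and Rtp4 had no region. The median over the 28 genes was 13.0, against 13.4 over all 356 open CpG-poor genes.

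Families of interferon-inducible genes were open at most or many members, but several share near-identical sequence. Of the CpG-poor guanylate-binding protein genes 8 of 9 were open (51.8 to 99.7%), against 5.41% of all CpG-poor genes. Of the Schlafen genes 4 of 6 were open (22.3 to 95.7%), and of the p200 family 7 of 12 (27.7 to 84.8%). The first count holds Gbp4, Gbp8 and Gbp9 with their shared region. Values were 16.3 at Gbp10 and 15 at Gbp3, GTPases that attack the vacuoles of pathogens, and 22.0 at Ifi206 and 17.9 at Ifi208 in the p200 family, which includes sensors of DNA. In the Trim family 8 of 23 were open (34.8%, 16.4 to 57.3%), with a median fold enrichment of 21.9. For 9 of the 28 open interferon-list genes at least 50% of each member region matched another place in the genome at 95% identity or more, as did 32 of all 374 member regions (8.56%). These include the regions of Gbp4, Gbp8, Gbp9, Gbp10, Ifit3, Ifit3b, Ifit1bl1, Irgm2 and Phf11b, and outside the list Trim12a, Trim5, Ifi213, Ifi209, Mndal and Lilrb4a. How the authors' mapping treated reads that match several places is not given in the sources used here, so the fold enrichment and calls of these regions are uncertain. The regions of Ifit1, Trim30a, Rsad2, Zbp1 and Trim12c had no such match.

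**Figure D4:**
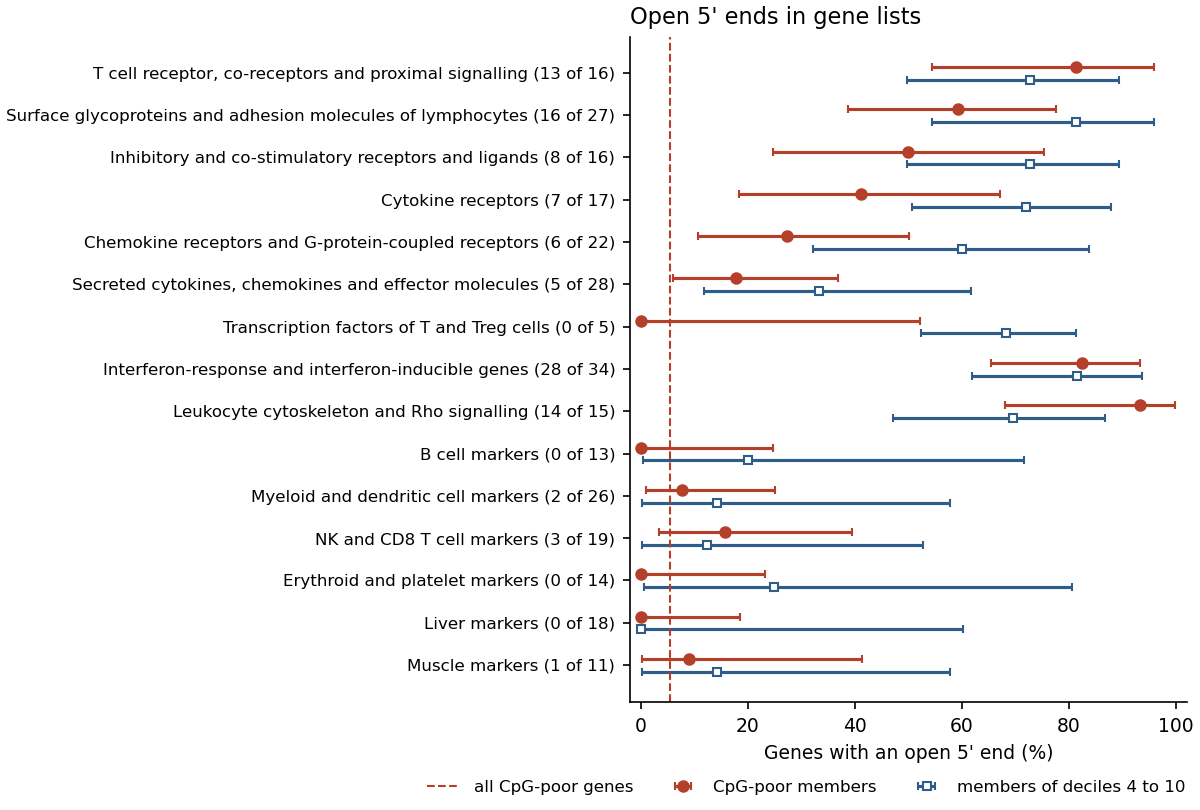
Share of genes with an open 5′ end (%) in 15 gene lists, for CpG-poor members (filled circles, counts in the labels) and members of deciles 4 to 10 (open squares), with 95% exact binomial intervals. The dashed line marks the 5.41% of all CpG-poor genes, and the cytoskeleton, interferon and T cell receptor lists lie at 93.3, 82.4 and 81.3%.

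The CpG-poor markers in each of the 6 lists for other cell types were open at shares that could not be told apart from the 5.41% of all CpG-poor genes. None of 13 CpG-poor B cell genes, 14 erythroid and platelet genes or 18 liver genes was open, which allows shares of up to 24.7%, 23.2% and 18.5% by the exact interval, so the 5.41% lies within each. Of 26 myeloid and dendritic cell genes Lilrb4a (18.4, at a region that is 82.5% matched elsewhere) and Spi1 (11.6, summit 678 bp downstream) were open (7.69%, 0.946 to 25.1%). Csf1r, Lyz2, Itgam and Itgax had no region. Of 19 NK and CD8 T cell genes Fasl, Prf1 and Gzma were open (15.8%, 3.38 to 39.6%), which the lists of T cell molecules above hold as well, and the 12 CpG-poor killer lectin-like receptors in the list were not. Of 11 muscle genes only Ckm was open (10.7), at a region whose summit lies 595 bp upstream where the CpG ratio is 0.735, and the interval of that share was 0.230 to 41.3%. For the cells named by the labels, 11 of 16 markers were open (68.8%, 41.3 to 89.0%). That interval includes the 45.6% of all protein-coding genes. Among the CpG-poor ones 4 of 7 were open (57.1%, 18.4 to 90.1%), against 5.41% of all CpG-poor genes. Foxp3, in decile 6, Cd4, in decile 4, and Cd28, Cd3d and Tnfrsf18 had no region that met the rule at the 5′ end of the gene record. The part of admixed cells in these openings was not tested.

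Many member genes lay close to one another. Of 356 member genes 104 (29.2%) had another member's 5′ end within 100 kb, and these formed 35 runs, 15 of them of 3 or more genes. The same share was not computed for other genes, so closeness cannot be called particular to the members. Of the 374 member regions 14 lay at the 5′ ends of 2 or more CpG-poor genes, so some genes of a run share a region. The runs were picked out after their values were seen. The longest, on chromosome 17, held 8 genes of the MHC class II region with 10 member regions: H2-Oa (14.6), H2-DMb2 (12.7), Tap2 (6.83), H2-Ob (12.7), H2-Ab1 (12.2), H2-Aa (25.8), H2-Eb1 (14.1) and Btnl2 (11.9), each with its highest fold enrichment. The H2 genes among them encode chains of class II molecules and of proteins that help load them, Tap2 is a subunit of the class I peptide transporter, and Btnl2 is a butyrophilin relative. Cd74, the class II invariant chain, had 15.5 on chromosome 18. Neither Cd74 nor the genes of this run are in the marker lists for other cell types, so the shares of those lists do not count them. The part of admixed cells in their openings was not tested. Other runs were 6 Trim genes on chromosome 7, 5 Gbp genes and the predicted gene Gm43302 on chromosome 5 sharing 3 regions, 5 p200 genes on chromosome 1, 5 Ifit genes on chromosome 19 and 4 Schlafen genes on chromosome 11. Gimap7 (20.1), Gimap8 (15.3) and Gimap3 (9.95), GTPases of lymphocyte survival, lay in a run on chromosome 6.

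Open CpG-poor genes lay among other open regions. Within 100 kb of their 5′ ends were 7 other regions at the median (quartiles 5 and 11), against 1 (0 and 5) for CpG-poor genes without a region, 6 for open genes of the middle deciles and 5 for those of the upper deciles. No other region lay within that distance in 7 of 356 open CpG-poor genes (1.97%, 0.794 to 4.01%) and in 2937 of 6225 CpG-poor genes without a region (47.2%, 45.9 to 48.4%). The median number of other protein-coding 5′ ends within 100 kb was 4 in both groups. Chemosensory receptor genes, 22.6% of all CpG-poor genes, were not left out of these comparisons. The genes with most other regions were Btn2a2 (30), in the histone gene region of chromosome 13, Gimap7 and the overlapping Gm28053 (22 each), Il2rb (21), Lck, Tap2 and Tbc1d10c (20 each). The next, with 19, included Gimap8, H2-Ab1, Ptpn22, Il12rb1 and S1pr4.

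The promoter windows of open CpG-poor genes held the ETS core CAGGAAG more often than those of any other group examined. This does not hold for ETS sites in general. The form with a CG pair, CCGGAAG, was in 4.78% of these windows, against 19.1% and 22.3% of open windows of the middle and upper deciles. The core CAGGAAG, on either strand of the 300 bases from 250 before to 50 after the 5′ end, was present in 110 of 356 windows (30.9%, 26.1 to 36.0%). It was present in 14% of CpG-poor genes without a region, 13.4% of open genes of the middle deciles, 10.2% of open genes of the upper deciles and 12.3% of all 21938 windows of this length. The windows differ in base composition, with a median GC content of 49.3% in open CpG-poor genes, 45.3% in CpG-poor genes without a region and 64.0% in open genes of the upper deciles. Among windows of 45 to 55% GC the shares were 34.0% (27.5 to 41.0%) in open CpG-poor genes, 19.2% (17.7 to 20.7%) in CpG-poor genes without a region, 15.3% (13.5 to 17.3%) in open genes of the middle deciles and 12.2% (10.1 to 14.7%) in open genes of the upper deciles. Without chemosensory receptor genes the core was in 31.1% of open CpG-poor windows and 16.3% (15.2 to 17.4%) of those without a region. Within 100 bp of the summit the core was in 33.4% of members, 12% of the middle class, 9.04% of the upper class and 26.8% of regions not at a 5′ end.

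RUNX and AP-1 sites were also more frequent than in CpG-richer open promoters. The RUNX site TGTGGTT was in 12.6% of open CpG-poor windows (9.37 to 16.5%), against 7.76% of CpG-poor windows without a region, 5.17% and 2.62% of open windows of the middle and upper deciles and 5.09% of all windows. Among windows of 45 to 55% GC it was in 13.3% (8.95 to 18.8%) of open CpG-poor genes and 9.38% (8.29 to 10.5%) of those without a region, so that the intervals overlap. In open genes of the middle and upper deciles with such windows it was in 7.25% (5.97 to 8.71%) and 4% (2.77 to 5.57%). The AP-1 site TGANTCA was in 13.2% of open CpG-poor windows and 11.8% of those without a region, against 4.51% and 3.21% in the open middle and upper classes and 6.91% in all. At 45 to 55% GC it was in 13.8% (9.37 to 19.3%) of open CpG-poor windows, 10.6% of those without a region and 5.25% and 4.84% in the open middle and upper classes. Around the summit, within 100 bp, RUNX and AP-1 sites were in 13.1% and 12.3% of members and in 12.4% and 12.9% of regions not at a 5′ end, with 1.78% and 2.32% in the upper class.

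IRF sites followed the interferon list. GAAANNGAA was in 59 of 356 open CpG-poor windows (16.6%, 12.9 to 20.8%), against 11.1% of CpG-poor windows without a region, 8.34% and 6.46% in the open middle and upper classes and 8.47% of all windows. Among windows of 45 to 55% GC the shares lay closer together, at 17.2% (12.3 to 23.2%) in open CpG-poor genes, 10.8% (9.69 to 12.1%) in those without a region, 11.1% (9.48 to 12.8%) in the open middle class and 12.5% (10.3 to 14.9%) in the open upper class, and the members' interval overlapped those of both CpG-richer classes. It was in 16 of the 28 open interferon-list genes (57.1%, 37.2 to 75.5%) and 43 of the other 328 (13.1%, 9.65 to 17.3%). Without genes whose regions have near-identical copies the counts were 10 of 19 (52.6%) and 30 of 301 (9.97%, 6.83 to 13.9%), and the share over all members was 12.5%. The match positions had their median at −68 bp (quartiles −137 and −29 bp). Genes with a match had a median fold enrichment of 15.8 (95% interval 13.3 to 18.1) and genes without one 12.9 (12.2 to 14), with intervals that overlap. These medians were not computed without the near-identical copies.

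Elements of island and core promoters showed other orders. The GC box GGGCGG, which holds a CG pair, was in 15.2% of open CpG-poor windows, 6.10% of those without a region, 56.2% and 74.1% of open windows of the middle and upper deciles and 43.0% of all. The ETS site with a CG pair, CCGGAAG, was in 4.78%, 1.19%, 19.1%, 22.3% and 10.8% of the same groups. CG pairs are what the CpG deciles count, so these orders between CpG classes are built into the classes. The KLF box CCCACCC, without a CG pair, was in 18% of open CpG-poor windows, 11% of those without a region and 21.2%, 19% and 18.3% of the middle open, upper open and all windows. The members' interval, 14.1 to 22.4%, covered the shares of both open CpG-richer classes. Among windows of 45 to 55% GC the box was in 18.7% (13.6 to 24.8%) of open CpG-poor genes and 14.4% (13.1 to 15.8%) of those without a region. It was in 15.5% (13.7 to 17.5%) of the open middle class and 11.1% (9.07 to 13.5%) of the open upper class. The members' interval there overlapped all but that of the upper class, which ended just below it.

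TATA boxes were fewer at open than at other CpG-poor 5′ ends. TATAAA was in 12.9% of open CpG-poor windows (9.62 to 16.9%) and 23.4% of those without a region, against 7.42% and 5.93% in the open middle and upper classes and 12.6% of all windows. In windows of 45 to 55% GC the shares were 9.85% (6.12 to 14.8%) and 16.2% (14.8 to 17.6%) in open and other CpG-poor genes, with intervals that meet at 14.8%. The order against CpG-richer open promoters turned round in such windows, with 10.9% (9.35 to 12.6%) in the open middle class and 13.3% (11.1 to 15.8%) in the open upper class, and these intervals overlap that of the members. Without chemosensory receptor genes they were 13.1% (9.76 to 17.1%) and 20.3% (19.1 to 21.4%). On the gene's strand, starting 40 to 20 bp before the 5′ end, it was in 7 of 356 open CpG-poor genes (1.97%, 0.794 to 4.01%), 5.53% of CpG-poor genes without a region, 0.590% and 0.609% of the open middle and upper classes, and 2.42% of all. CCAAT was in 30.9% of open CpG-poor windows and 40.7% of those without a region, with 42.7%, 39.0% and 39.0% in the middle open, upper open and all windows. At 45 to 55% GC the CCAAT shares of these 2 CpG-poor groups were 31.0% (24.7 to 37.9%) and 38.7% (36.8 to 40.6%), with overlapping intervals. In the open middle and upper classes they were 45.6% and 44.2%. The NF-kB site GGGANTTCC was in 3.09% of open CpG-poor windows (11 genes), 1.09% of those without a region, 2.74%, 2.53% and 1.91% of the middle open, upper open and all windows. At 45 to 55% GC the NF-kB shares of open CpG-poor, middle open and upper open windows were 2.46% (0.804 to 5.65%), 2.76% and 2.30%. In such CpG-poor windows without a region the share was 1.51% (1.08 to 2.05%), inside the members' interval.

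**Figure D5:**
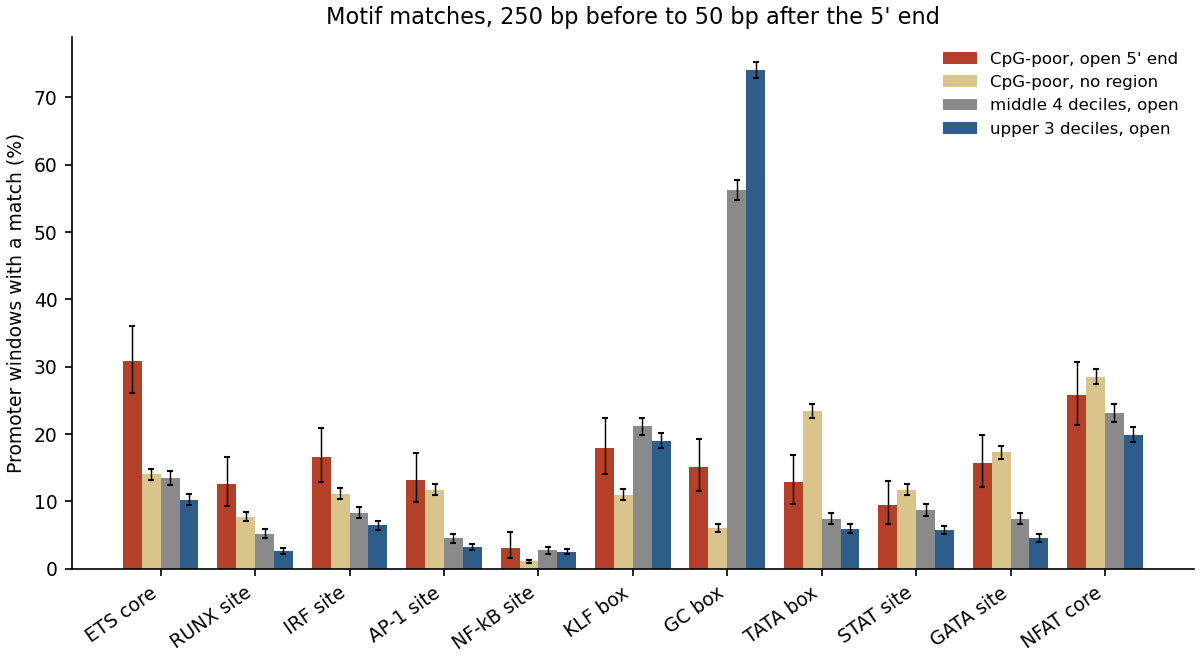
Share of promoter windows (250 bp before to 50 bp after the 5′ end) with a match on either strand (%), for CpG-poor genes with and without an open 5′ end and open genes of the middle 4 and upper 3 deciles, with 95% exact binomial intervals. The ETS core stands at 30.9% in open CpG-poor windows and at 10.2 to 14% in the others, with no match for GC content, and the TATA box at 12.9% against 23.4% in CpG-poor windows without a region.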

How the data were processed

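ATAC-seq of 2 samples, technical replicates of 1 biological replicate, gave 3 lists of peaks on mm10, the same for both samples, per the text files deposited with them. The fold (a linear ratio over background), the −log10 p and the score up to 1000 are the authors' own deposited values, compared here between peaks of the same list only. No source used here names the aligner, peak caller, read filters, Tn5 shift or read counts, so the depth is unknown. A local background would make fold and width depend on the surroundings of a peak.

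Here, peaks of the IDR-thresholded list were joined and placed on GENCODE M21 5′ ends and the RefSeq GRCm38.p6 sequence with Python 3.11.15, numpy 2.4.6 and pandas 2.3.3. Intervals of shares are exact binomial (Clopper-Pearson, 95%, scipy 1.17.1), those of medians come from order statistics over regions, and both cover the choice of genes or regions only. Near-identical copies and mitochondrial matches were found with BLAST+ 2.17.0. Joining, pairing, CpG ratios and motif counts were tested on simulated data and returned the planted values. No p-value was computed, since regions and genes are not replicates.

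The members, the 15 gene lists (526 entries), the families and the 21 motifs were chosen with earlier results of these data known. Named were the 12 members of highest and 3 of lowest fold, up to 8 open and 8 unopened genes a list, up to 6 a family, the 2 nearest each limit, the 8 with most neighbouring regions and ties, and 5 at CpG-richer starts. Ptprc, Rac2, Mx1, Isg15, Cd74, Il18 and the runs of genes were named after their values were seen. Some listed genes are counted but not reported by name here. Of the promoters meant to be shown, no listed gene met the conditions for the NF-kB site. Other settings tried were the peak list, IDR and fold limits, summit distance, CpG cut and window, transcript starts, shared starts, single peaks, motif windows and locus distance.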

Additional observations from a re-analysis of the deposited data

How the results depend on the processing

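Of 10 main results under the alternatives run, 83 values stayed within their interval or within 1.5 times the count, 54 moved and 1 changed sign. Among other values (lists and motifs) 677 stayed and 137 moved. The one that changed sign was the median fold of members minus that of other open promoters, −3.34 with joined regions and 1.19 with single peaks, where secondary summits enter with their own fold. Single peaks also gave 695 members, a median fold of 7.76 and width of 796 bp, 48.1% upstream summits and 14 other peaks within 100 kb. In the pseudoreplicated list there were 591 members at 7.92% of CpG-poor genes, with a median fold of 9.08 (−5.15 against other open promoters), a width of 497 bp and 13 other regions. At an IDR of 0.01 the open share was 4.85%, with 6 other regions. In the upper 50% of regions by fold there were 179 members (2.84% of genes), a fold of 17.6 (−1.13), a width of 744 bp, IRF sites in 20.9%, 3 other regions and 41 open list genes. With summits within 500 bp the open share was 4.01%, upstream summits 73.9% and ETS cores 36.4%. Within 2000 bp there were 610 members, 8.34%, 49.2% and 25.9%. The lowest 2 deciles gave 184 members, an open share of 4.06%, 65.2% upstream summits, ETS cores in 36.5%, IRF sites in 21.9% and 55 open list genes. The lowest 4 gave 787 members, 8.57%, a width of 712 bp and 152 open list genes. A CpG window of 250 bp gave an open share of 6.41%. Any transcript start gave 678 members at 6.30%. Motif windows from 100 bp before to 50 after held ETS cores in 25% and IRF sites in 11%, and windows of 500 bp on either side 56.5% and 34.0%. Within 50 kb and 200 kb lay 4 and 13 other regions.

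Chosen after seeing the data, the set without near-identical copies had an open share of 4.86% and IRF sites in 12.5%. Members with summits within 200 bp numbered 214 (3.43% of genes), with 79.0% upstream, ETS cores in 38.9% and IRF sites in 21.7%. The causes of these shifts were not tested, apart from the fewer or more regions that each limit admits by construction. Leaving out a technical replicate was not possible because the lists pool both. No paired analysis was possible because there is 1 group. The depth is unknown, so a 5′ end without a region is one not called in the IDR-thresholded list. Some such genes have a region in the pseudoreplicated list, among them Cd7 (fold 10.4), Lair1 (9.60), Oas1a (6.57) and Lag3 (4.72). Open CpG-poor genes there numbered 13 of 22 chemokine and other G-protein-coupled receptors, 22 of 27 surface molecules and 31 of 34 interferon genes. They numbered 1 of 13 B cell markers and 0 of 18 liver markers. Of all CpG-poor genes 7.92% were open in that list.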

Other observations

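Most open CpG-poor genes were in no list, and the following were picked from the highest fold enrichments after the values were seen. Hsh2d, an adaptor of hematopoietic cells, had a fold enrichment of 24.0 at −48 bp. Mr1, which presents vitamin metabolites to innate-like T cells, had 23.2 at −36 bp, in a region of 1434 bp. Nlrc3, a NOD-like receptor that restrains T cell and innate responses, had 23.1 at 42 bp, and its window held an ETS core. Rgs14, a regulator of G-protein signalling, had 22.1 at −6 bp, with an ETS core and a RUNX site. Lax1, an adaptor that dampens lymphocyte signalling, had 20.2 at −43 bp, also with both. Snx20, a sorting nexin that binds PSGL-1, had 20.3 at −59 bp. Ctla2a, a cysteine protease inhibitor first described in activated T cells, had 20.7 at −80 bp, in a region shared with the predicted gene Gm49391. Genes of metabolism stood among them too: Hsd11b1, which regenerates active glucocorticoid, had 23.0 at −37 bp, and Glrx, a glutaredoxin, had 20.7 at −41 bp.

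The 5 open chemosensory receptor genes were Olfr156 (22.7), Olfr433 (22.1), Tas1r1 (16.5), Olfr525 (14.3) and Olfr56 (11.8). None had its summit within 200 bp of the 5′ end: they lay at 804, 314, −749, 412 and 551 bp. The CpG ratio around the summit of Tas1r1 was 0.871, and the whole region of Olfr56 matched another place in the genome. Openings at these genes are given as positions only, and which transcript they belong to was not tested.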
